A study of Mus musculus with 35 samples.

Results

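The comparison described here is that of BMDMs labelled AMPKα1-/- with BMDMs labelled wild type (WT), both given vehicle only. BMDMs are bone marrow-derived macrophages, grown from mouse bone marrow in medium conditioned by L929 cells, which supplies the macrophage growth factor. All samples with the vehicle label were taken, which gave 6 of the 35 RNA-seq libraries of the series, 3 of each genotype. The AMPKα1-/- group came from C57BL/6 mice labelled AMPKa1-/-, the WT group from C57BL/6 mice labelled WT, and both were exposed to DMSO, the solvent of the drugs, for 24 h. The other 29 libraries, 15 labelled AMPKα1-/- and 14 labelled WT, were exposed for the same 24 h to dexamethasone (Dex, 100 nM), lipopolysaccharide (LPS, 100 ng/ml), damage-associated molecular patterns (DAMPs, 1 ug/ml), LPS + Dex or DAMPs + Dex, and are used here only to look at the same genes again. The published methods give mixed-sex mice of 8 to 15 weeks and, unless stated otherwise, cultures from individual mice, but describe no AMPKα1-/- line. The allele, the part of the gene that it removes, the breeding of the WT controls and the animal behind each library are therefore not known here. The p-values measure the spread between these libraries, which may be technical in part.

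AMPK, the AMP-activated protein kinase, senses a fall in cellular energy. It is a complex of a catalytic α subunit, a scaffolding β subunit and a γ subunit that binds adenine nucleotides. The kinase is switched on when LKB1 or CAMKK2 phosphorylates the α subunit, and it then favours fatty acid oxidation, autophagy and mitochondrial turnover while holding back lipid synthesis and mTORC1. In macrophages the α1 form, encoded by Prkaa1, is the main catalytic subunit, and it has been tied to the restraint of inflammatory gene expression.

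The 6 libraries held 16805391 to 23454927 fragments, as estimated from the steps between the lowest values. Each value is an FPKM, the number of fragments of a gene relative to its length and to the library total. Pearson correlations of log2(FPKM + 1) were 0.982 to 0.989 between AMPKα1-/- libraries, 0.981 to 0.992 between WT libraries and 0.978 to 0.986 between genotypes, so libraries differed almost as much within as between genotypes.

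Prkaa1 was examined first, because its level bears on the labels. Prkaa1 (ENSMUSG00000050697, chr15:5143861-5181899, GRCm38) had levels of 14.8, 16.5 and 15.4 FPKM in the libraries labelled AMPKα1-/- and of 15.9, 11.8 and 15.3 FPKM in those labelled WT. The 2 groups overlapped, and Prkaa1 was not lower in the libraries labelled AMPKα1-/-. The difference was 0.12 ± 0.12 (SE, n = 3 per group) on the log2(FPKM + 1) scale, with a 95% interval of -0.17 to 0.41 (limma, adjusted p = 0.874). An exact two-sided permutation test over the 6 libraries gave p = 0.50, where 0.10 is the smallest p that 3 against 3 libraries can give. Across all treatments Prkaa1 ranged from 9.05 to 24.0 FPKM in the 18 libraries labelled AMPKα1-/- and from 8.59 to 26.1 FPKM in the 17 labelled WT, and the groups overlapped in each of the 6 treatments. The files hold one value for the whole gene. A deletion of a few exons that leaves the rest of the transcript in place need not lower such a value, and the position of the deletion was not available here. The genotypes are therefore given as labelled throughout.

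**Figure D1:**
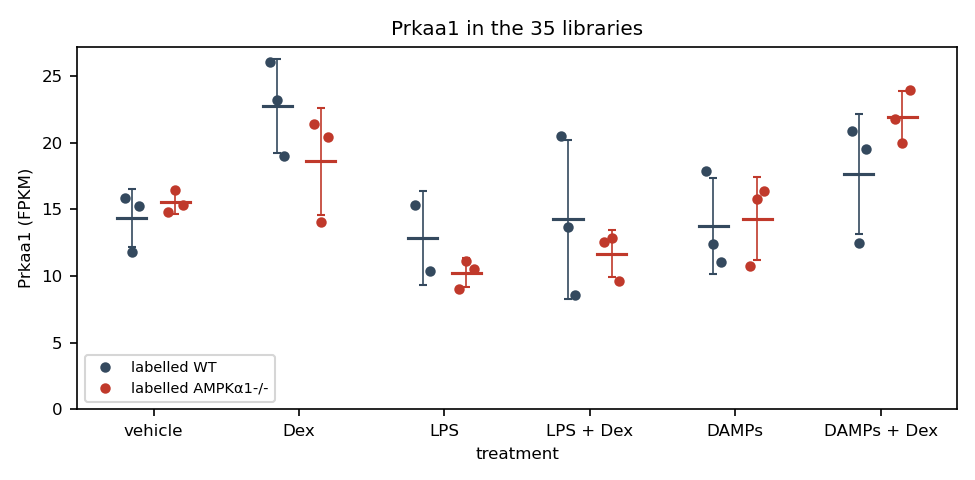
Prkaa1 in FPKM (vertical axis, from 0) for each of the 35 libraries, by treatment (horizontal axis). Points are libraries, horizontal lines the group means and error bars 1 SD (n = 3, except 2 for WT with LPS); in no treatment were the genotypes separate, and in vehicle the 6 libraries lay between 11.8 and 16.5 FPKM.

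Of the 7 AMPK subunit genes, 5 had a mean of at least 1 FPKM and were tested, and none passed the test (0.169% of all genes did). Prkab1, a β subunit gene, had 33.5, 37.3 and 32.5 FPKM in AMPKα1-/- and 40.8, 32.3 and 30.2 FPKM in WT libraries. Prkab2, the other β subunit gene, had 5.59, 5.49 and 5.74 FPKM against 6.93, 5.49 and 6.42 FPKM. Prkag1, a γ subunit gene, had 12.2, 10.8 and 12.1 FPKM against 9.83, 11.7 and 9.17 FPKM. For these genes each WT group reached into the range of the AMPKα1-/- group. Prkag2, which encodes another γ subunit, had 27.2, 24.6 and 29.3 FPKM against 23.5, 21.2 and 24.7 FPKM, a difference of 0.22 ± 0.10 (limma, adjusted p = 0.636), and the groups overlapped. Prkaa2, the gene of the second catalytic subunit, had 0.0963, 0.130 and 0.125 FPKM in AMPKα1-/- and 0.0136, 0.0523 and 0.0942 FPKM in WT libraries, groups that did not overlap at a level of few fragments, and Prkag3 stayed at or below 0.231 FPKM, so neither was tested. Of the 8 upstream kinases and partners, 7 were tested and none passed. Stk11, which encodes LKB1, had 115, 99.8 and 122 FPKM in AMPKα1-/- and 106, 91.3 and 97.7 FPKM in WT libraries, and Camkk2 had 52.5, 46.5 and 45.1 FPKM against 40.0, 42.6 and 49.7 FPKM. Both genes overlapped between the genotypes.

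Few genes passed the adjusted test across the genome. Of 11275 genes with a mean of at least 1 FPKM, 19 passed limma's moderated test on log2(FPKM + 1) at an adjusted p below 0.05, which is 0.169% of those tested. Of these, 5 were higher in the libraries labelled AMPKα1-/- (0.0443%) and 14 were lower (0.124%). At an unadjusted p below 0.05 there were 949 genes (8.42%), 564 higher (5.00%) and 385 lower (3.41%). At an unadjusted p below 0.001 there were 78 (0.692%). Groups that did not overlap, in either direction, were found for 1567 genes (13.9%), 914 of them higher in AMPKα1-/- (8.11%) and 653 lower (5.79%). The median difference over all genes was 0.0086 on the log2 scale. The number of calls rested on single libraries: it was 7 without WT replicate 1, 34 without WT replicate 2, 12 without AMPKα1-/- replicate 1 and 10 without AMPKα1-/- replicate 2. Of the 19 genes, 7 kept the call whichever of the 6 libraries was left out: Eno1b, Gm4735, Fblim1, Clstn1, Dnajc28, Klk1b22 and Zfp991. The other 12 lost it at least once, 7 of them in 5 or 6 of the 6 cases. The gene nearest inside the threshold was Dkk2 (adjusted p = 0.0373), and the gene nearest outside it was Hist1h2al (adjusted p = 0.0576). Differences below are on the log2(FPKM + 1) scale, AMPKα1-/- minus WT, with their SE for 3 libraries per group, and adjusted p-values are limma's with Benjamini-Hochberg adjustment.

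**Figure D2:**
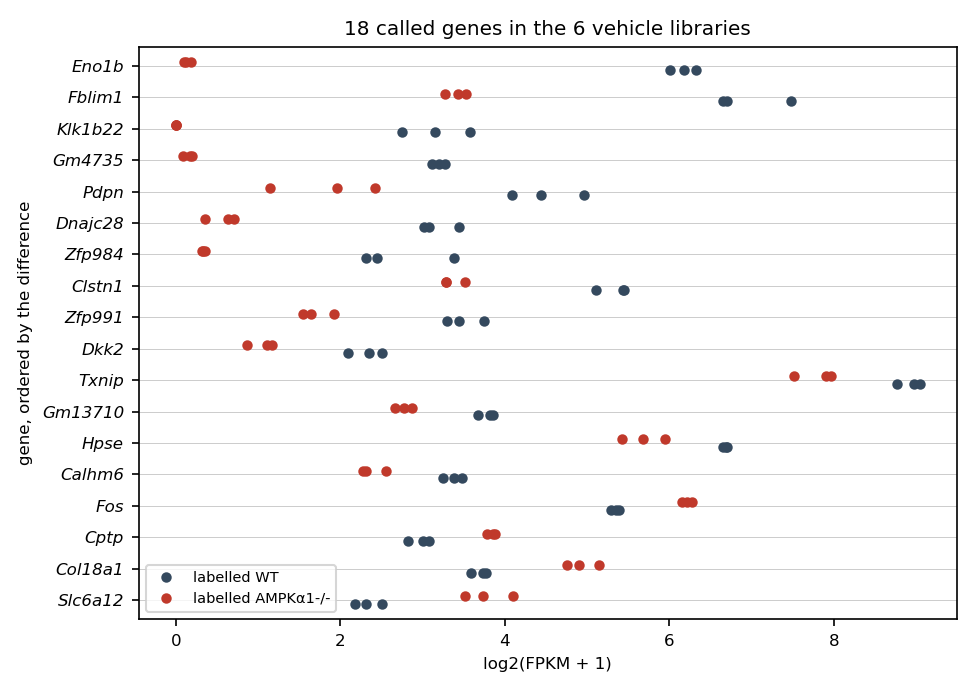
Level of 18 called genes as log2(FPKM + 1) (horizontal axis) in each of the 6 vehicle libraries, ordered by the difference between genotypes (vertical axis). Points are libraries; for each of the 18 genes the 3 libraries labelled AMPKα1-/- lie wholly to one side of the 3 labelled WT, and the 4 higher genes shown are Fos, Cptp, Col18a1 and Slc6a12.

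The largest difference, and the lowest p, was in a copy of the enolase 1 gene. Eno1b (ENSMUSG00000059040, on chromosome 18) is annotated as protein-coding and is a near-copy of Eno1, the enolase of glycolysis. It had 0.0728, 0.0932 and 0.135 FPKM in AMPKα1-/- libraries and 63.4, 79.0 and 71.2 FPKM in WT libraries. It was thus close to absent in the first group and well expressed in each library of the second, with a difference of -6.03 ± 0.12 (adjusted p = 3.34e-07). Gm4735 (ENSMUSG00000064193, chr2:80837141-80838442), a processed pseudogene of the same enzyme, had 0.0655, 0.126 and 0.146 FPKM against 7.64, 8.64 and 8.19 FPKM, a difference of -3.04 ± 0.13 (adjusted p = 9.04e-05). The parent gene, Eno1 (ENSMUSG00000063524, chr4:150236721-150248879), had 899, 997 and 925 FPKM in AMPKα1-/- and 513, 584 and 594 FPKM in WT libraries. Its groups did not overlap, yet its difference of 0.74 ± 0.11 did not pass the adjustment (adjusted p = 0.0637).

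These 3 genes are nearly identical over the coding sequence, so fragments may have been split between them or left out of the count. Each of the 3 values is therefore uncertain on its own. Over the 1302 coding bases (stop codon not counted), Eno1 and Eno1b differ at 8 bases (99.4% identical), Eno1 and Gm4735 at 5 (99.6%) and Eno1b and Gm4735 at 3 (99.8%). The longest run without a difference is 725 bases for Eno1 with either copy.

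On a scale of fragments relative to the library total (FPKM times exon length), which can be added across genes, the 3 genes together had 4838, 5366 and 4978 in the AMPKα1-/- libraries and 2890, 3302 and 3340 in the WT libraries. The sum was higher in each AMPKα1-/- library. How fragments that match several of these genes were counted is not known here, so the sum may miss such fragments. Eno1b and Gm4735 together took 0.0046 to 0.0089% of that sum in the AMPKα1-/- libraries and 4.32 to 4.83% in the WT libraries. The exon lengths were those of GENCODE M21 for both genotypes. They may not be the lengths behind the FPKM values, so sums and shares are approximate. In the other treatments the sum moved widely, from 1708 to 7083 in WT libraries, while the share on the copies stayed between 3.82 and 6.16% there and between 0 and 0.0196% in the libraries labelled AMPKα1-/-. The share of fragments on the copies thus separated the genotypes in all 35 libraries.

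Chromosome 4 held the most called genes, 6 of the 19, among 699 genes tested there (0.858% against 0.169% of all genes). Chromosome 18 had a similar share, 2 of 262 (0.763%), and the spread over chromosomes was not tested. The 6 on chromosome 4 all lay beyond 140 Mb, a boundary set after their positions were seen, at the edge of the window with the first of them. In that region 138 genes were tested (4.35%), 5 of them lower and 1 higher in AMPKα1-/-. In the same region 36 genes had an unadjusted p below 0.05 (26.1%, against 8.42% of all genes), and 42 had groups that did not overlap (30.4%, against 13.9%). These counts include the called genes around which the region was drawn. Without called genes, 30 of the remaining 132 had an unadjusted p below 0.05 (22.7%, against 8.08% elsewhere) and 36 had groups that did not overlap (27.3%, against 13.6%). By windows of 5 Mb, chr4:145000001-150000000 held most called genes, 3 of 47 tested, followed by chr2:80000001-85000000 with 2 of 18 and chr4:140000001-145000000 with 2 of 25. The count on chromosome 4 fell to 3 without WT replicate 1 and without AMPKα1-/- replicate 1 or 2.

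The gene with the largest difference on chromosome 4 was Fblim1 (ENSMUSG00000006219, chr4:141576062-141606096), which encodes a filamin-binding adaptor of cell adhesions. It had 8.64, 9.75 and 10.5 FPKM in AMPKα1-/- and 103, 177 and 99.2 FPKM in WT libraries. Each WT library was several times above each AMPKα1-/- library, with a difference of -3.53 ± 0.21 (adjusted p = 0.000754). Pdpn (chr4:143267431-143299564), the gene of the membrane glycoprotein podoplanin, had 2.88, 4.36 and 1.21 FPKM against 20.6, 15.9 and 30.0 FPKM, a difference of -2.65 ± 0.34 (adjusted p = 0.0373). Clstn1 (chr4:149586468-149648899), which encodes calsyntenin 1, a membrane protein of transport vesicles, had 8.77, 8.78 and 10.4 FPKM against 42.4, 33.5 and 42.7 FPKM, a difference of -1.97 ± 0.12 (adjusted p = 0.0009). These 3 genes have no near-identical copy among the annotated transcripts, and none of their groups overlapped.

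Among the zinc finger genes of the same region Zfp991 and Zfp984 were called. Zfp991 (chr4:147132038-147180579) had 2.13, 2.79 and 1.93 FPKM in AMPKα1-/- and 8.85, 12.4 and 9.82 FPKM in WT libraries, a difference of -1.79 ± 0.16 (adjusted p = 0.00654). Zfp984 (chr4:147753974-147809788) had 0.249, 0.277 and 0.259 FPKM against 4.43, 9.41 and 3.98 FPKM, a difference of -2.38 ± 0.27 (adjusted p = 0.0246). Both lie in a cluster of related genes, and 99.3% of 2491 aligned bases of Zfp991 match Zfp992, while 94.9% of 1850 aligned bases of Zfp984 match Gm13212, so that reads may have been shared with these copies and the values are uncertain. Other zinc finger genes there did not pass, among them Zfp992 (-0.16 ± 0.11, adjusted p = 0.774), Zfp993 (-0.47 ± 0.24, adjusted p = 0.657) and Zfp933 (-0.46 ± 0.16, adjusted p = 0.445), which were named after their values were seen. The call of Zfp984 was lost without WT replicate 1 and without each AMPKα1-/- replicate (adjusted p up to 0.149), and that of Pdpn without WT replicates 1 and 3 and AMPKα1-/- replicates 1 and 2 (up to 0.134). The gene called higher on chromosome 4 was Cptp (chr4:155864723-155869440), which encodes a transfer protein for ceramide-1-phosphate. It had 12.7, 13.8 and 13.5 FPKM in AMPKα1-/- and 6.08, 7.02 and 7.40 FPKM in WT libraries, a difference of 0.88 ± 0.11 (adjusted p = 0.0332). The 3 AMPKα1-/- values were close together and all above the highest WT value, yet the call was lost when any library but WT replicate 2 was left out (adjusted p up to 0.168).

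**Figure D3:**
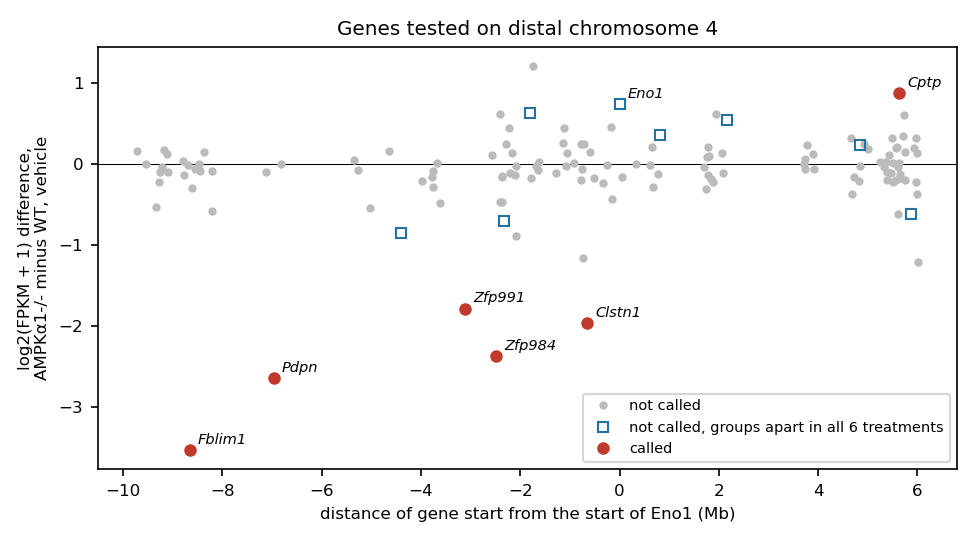
Difference between genotypes in vehicle, on the log2(FPKM + 1) scale (vertical axis), against the distance of each gene's start from the start of Eno1 in Mb (horizontal axis), for the 138 genes tested on chromosome 4 beyond 140 Mb. Filled red points are the 6 called genes and open squares those not called whose genotypes did not overlap in any of the 6 treatments; called genes lie on both sides of Eno1, 5 below and 1 above 0.

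Within 10 Mb of Prkaa1 on chromosome 15, 35 other genes were tested and none was called. With 0.169% of all genes called, none among 35 is near that share and says nothing about this region. Of these, 2 had an unadjusted p below 0.05 (5.71%, against 8.42% of all genes) and 7 had groups that did not overlap (20.0%, against 13.9%). The smallest p was that of the short gene Mir1898 (0.0056, adjusted p = 0.295), followed by Selenop, the gene of a secreted selenium carrier. Selenop had 2807, 2760 and 2550 FPKM in AMPKα1-/- and 3695, 3943 and 3141 FPKM in WT libraries, a difference of -0.40 ± 0.15 (adjusted p = 0.508). Its groups did not overlap, but the difference did not pass the test.

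Called genes on other chromosomes are given with some of their neighbours, which were chosen after their values were seen. Dnajc28 (chr16:91614254-91619026), which encodes a protein with a DnaJ domain, had 0.631, 0.549 and 0.281 FPKM in AMPKα1-/- and 9.91, 7.08 and 7.44 FPKM in WT libraries, a difference of -2.61 ± 0.17 (adjusted p = 0.000936). It was low in each AMPKα1-/- library. Its neighbour Ifnar1 (chr16:91485238-91507441), a chain of the type I interferon receptor, had 79.3, 81.2 and 81.0 FPKM against 114, 113 and 122 FPKM, without overlap, but did not pass the adjustment (-0.52 ± 0.07, adjusted p = 0.0634). Il10rb (chr16:91406164-91425834), a chain of the interleukin-10 receptor, had 74.9, 74.7 and 73.0 FPKM against 98.6, 126 and 113 FPKM (-0.59 ± 0.10, adjusted p = 0.107). The window with these genes, chr16:90000001-95000000, held 38 tested genes with a median difference of -0.02. In it 11 genes had groups that did not overlap (28.9%, against 13.9% of all genes), 7 lower and 4 higher in AMPKα1-/-. On chromosome 7, Klk1b22 (chr7:44112673-44116922), a kallikrein serine protease gene, was listed at 0 in the 3 AMPKα1-/- libraries and had 10.9, 5.71 and 7.91 FPKM in WT libraries (adjusted p = 0.000977). On chromosome 2, Gm13710 (chr2:84500760-84531322), a long non-coding RNA in the same window as Gm4735, had 6.33, 5.35 and 5.84 FPKM against 11.8, 13.2 and 13.5 FPKM, a difference of -1.01 ± 0.11 (adjusted p = 0.0188), a call lost when any library but WT replicate 2 was left out (adjusted p up to 0.1005).

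Among the called genes elsewhere, 4 were higher in the libraries labelled AMPKα1-/-, and 3 of them are described. Fos, an immediate early gene and subunit of the AP-1 transcription factor, had 69.8, 76.6 and 73.0 FPKM in AMPKα1-/- and 38.2, 39.9 and 40.9 FPKM in WT libraries, a difference of 0.87 ± 0.08 (adjusted p = 0.00654). Both groups were tight. Slc6a12, a betaine transporter gene, had 16.2, 12.3 and 10.4 FPKM against 3.51, 3.95 and 4.68 FPKM, a difference of 1.45 ± 0.17 (adjusted p = 0.0271). Col18a1, which encodes a basement membrane collagen, had 28.9, 34.4 and 25.9 FPKM against 11.1, 12.7 and 12.3 FPKM, a difference of 1.23 ± 0.12 (adjusted p = 0.0105). Fos lost the call without WT replicate 1 (adjusted p = 0.0737), Col18a1 without WT replicate 1 or AMPKα1-/- replicate 1 (up to 0.0737), and Slc6a12 when any library but AMPKα1-/- replicate 3 was left out (up to 0.152). With a replicate block the calls of Fos, Col18a1 and Slc6a12 were lost as well.

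The remaining called genes were lower in the libraries labelled AMPKα1-/-. Hpse, the gene of heparanase, had 60.5, 41.8 and 50.2 FPKM in AMPKα1-/- and 99.9, 103 and 102 FPKM in WT libraries (-0.998 ± 0.129, adjusted p = 0.0373). Calhm6, a gene of the calcium homeostasis modulator family, had 4.86, 3.94 and 3.82 FPKM against 9.42, 10.1 and 8.48 FPKM (-0.99 ± 0.13, adjusted p = 0.0373). Dkk2, which encodes a secreted Wnt inhibitor, had 1.16, 0.825 and 1.24 FPKM against 4.68, 3.28 and 4.08 FPKM (-1.27 ± 0.16, adjusted p = 0.0373). In each of them the lowest WT library stood above the highest AMPKα1-/- library. The call of Calhm6 was lost whichever library was left out (adjusted p from 0.0610 to 0.185), that of Hpse with any but AMPKα1-/- replicate 1 left out (up to 0.167) and that of Dkk2 with any but WT replicate 2 left out (up to 0.1799).

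Txnip was the called gene with the closest known tie to AMPK, since its product, a protein that limits glucose uptake, is phosphorylated by the kinase. Txnip (ENSMUSG00000038393, chr3:96557957-96561883) had 248.6, 238.6 and 182.3 FPKM in AMPKα1-/- and 499, 526 and 433 FPKM in WT libraries. Each WT library lay well above each AMPKα1-/- library, with a difference of -1.13 ± 0.14 (adjusted p = 0.0344), a call that was lost when any library but AMPKα1-/- replicate 3 was left out (adjusted p up to 0.1503) and with libraries centred on a common median. By gene start and end, the non-coding gene Gm15441 overlaps Txnip on the other strand, and whether their exons overlap was not looked at. No source used here says whether strand was used in counting, so reads from any shared exon bases could not be told apart. The same holds for Dnajc28 with Gm15964 and for Col18a1 with Slc19a1, and Zfp991 and Zfp984 overlap other annotated genes too. Arrdc4 (chr7:68736995-68749241), a related arrestin-domain gene chosen after its values were seen, had 7.36, 7.88 and 5.84 FPKM against 20.4, 13.1 and 20.3 FPKM, without overlap (-1.22 ± 0.19, adjusted p = 0.0716). Both genes are known targets of the glucose-sensing factors MondoA and ChREBP, which bind paired E-boxes.

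Their promoters are shown because of this known regulation. Txnip was called and Arrdc4 was not. RefSeq (GRCm38.p6) places them at chr3:96557707-96558006 on the plus strand for Txnip and at chr7:68749189-68749488 on the minus strand for Arrdc4, from 250 bases before the start to 50 after it. Capitals mark matches, on either strand, to the paired form, which is CACGNG, then 5 open bases, then CACGNG again, in Txnip and to the single E-box CACGTG in Arrdc4. The 2 motifs can overlap where the open base is a T.
Txnip: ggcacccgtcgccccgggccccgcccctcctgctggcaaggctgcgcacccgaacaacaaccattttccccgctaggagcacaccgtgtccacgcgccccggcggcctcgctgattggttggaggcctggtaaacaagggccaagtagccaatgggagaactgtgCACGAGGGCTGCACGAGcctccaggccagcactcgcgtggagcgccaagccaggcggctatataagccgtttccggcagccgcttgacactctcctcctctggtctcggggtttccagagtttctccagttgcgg
Arrdc4: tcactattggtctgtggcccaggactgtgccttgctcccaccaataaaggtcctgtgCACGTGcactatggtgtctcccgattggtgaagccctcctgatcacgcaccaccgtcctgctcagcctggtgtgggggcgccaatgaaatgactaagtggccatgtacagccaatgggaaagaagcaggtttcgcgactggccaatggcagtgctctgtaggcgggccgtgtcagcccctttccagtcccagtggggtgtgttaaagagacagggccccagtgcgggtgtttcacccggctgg

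The paired form was found in 16 of 32851 promoters of this length (0.0487%) and the single E-box in 2349 (7.15%). Of the 19 called genes, 15 had a promoter in the table. Txnip alone among these held the paired form, and Pdpn alone held the single E-box. Arrdc4, which was not called, held the single E-box but not the paired form in the bases shown. The paired form was looked for because of the known regulation of Txnip, so its match there is not a result of these data. A match is a run of letters and no evidence that a factor was bound.

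The called genes were then looked at in the other 5 treatments, in a fit of all 35 libraries in 12 groups. Of the 11354 genes with a mean of at least 1 FPKM over all libraries, this fit called 0.432% in vehicle, 26.5% with Dex, 0.766% with LPS, 0.669% with LPS + Dex, 0.731% with DAMPs and 1.06% with DAMPs + Dex. Of the 19, 16 passed in vehicle too, where 0.497% of the 11275 genes did, but the vehicle libraries are those that chose them, so nothing is read from this; the exceptions were Fos, Gm13710 and Calhm6. Of the 19, 17 differed in the same direction in each of the 5 other treatments, Fos and Dkk2 being the exceptions. Passing the test in all 5 were 6 genes: Eno1b, Gm4735, Fblim1, Clstn1, Zfp991 and Zfp984. These genes passed in vehicle as well, and thus in all 6 treatments, as did 7 of all 11275 genes (0.0621%). That count includes vehicle, whose libraries chose the 19. In none of the 5 did 2 genes pass, Gm13710 among them. By treatment, 14 of the 19 passed with Dex (where 26.9% of all genes did), 9 with LPS (0.612%), 7 with LPS + Dex (0.523%), 14 with DAMPs (0.807%) and 10 with DAMPs + Dex (1.04%). The high share with Dex means that a call there says little about these genes. Libraries with the same number may come from the same animals in different treatments, so the treatments may not be independent of each other.

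**Figure D4:**
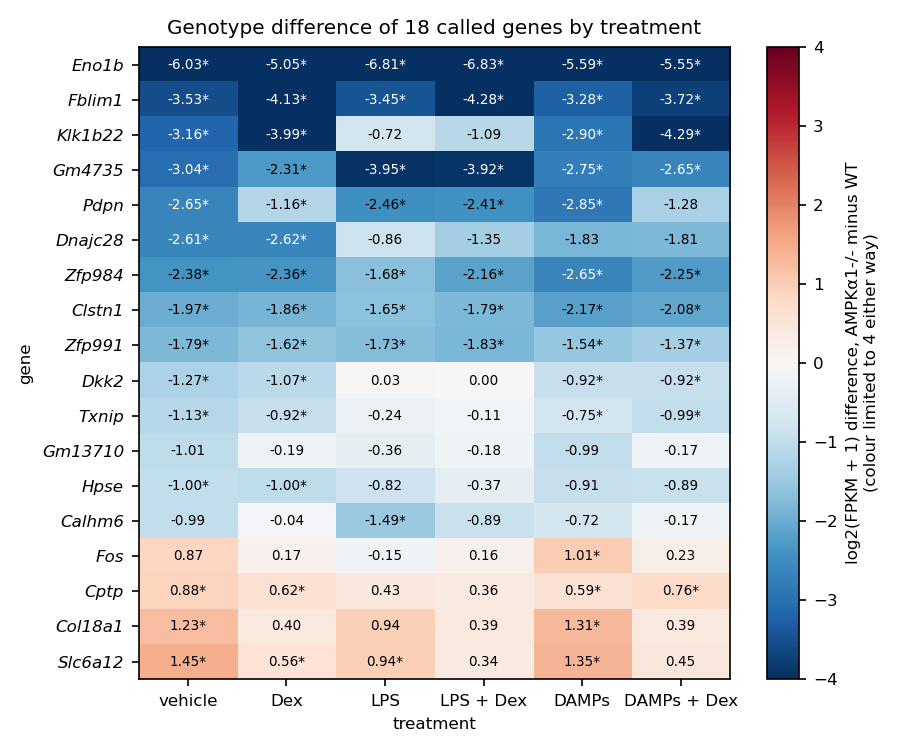
Difference between genotypes on the log2(FPKM + 1) scale for 18 called genes (rows) in each treatment (columns), from the fit of all 35 libraries, with an asterisk where the adjusted p was below 0.05. The 6 genes with an asterisk in every column, among them Eno1b and Fblim1, were lower in the libraries labelled AMPKα1-/- throughout, while Dkk2 stood at about 0 with LPS.

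Fblim1 was lower in AMPKα1-/- at every level it took. Over all treatments it ranged from 0.140 to 16.8 FPKM in the libraries labelled AMPKα1-/- and from 12.5 to 211 FPKM in those labelled WT, with differences from -4.28 to -3.28 in the 5 other treatments. Where its level in AMPKα1-/- fell below 1 FPKM the added 1 narrows this difference: the ratio of the WT mean to the AMPKα1-/- mean was 10.8 with DAMPs, 13.1 in vehicle, 49.0 with LPS and 67.4 with LPS + Dex. Clstn1 ranged from 1.19 to 10.4 FPKM and from 4.93 to 42.7 FPKM, with differences from -2.17 to -1.65. Slc6a12, by contrast, reached 615 FPKM in AMPKα1-/- and 475 FPKM in WT libraries of other treatments, with differences from 0.34 to 1.35. The groups of Fblim1 and Clstn1 stayed apart within every treatment, and those of Slc6a12 in 4 of the 5 others.

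Without regard to calls, 36 of the 11275 genes (0.319%) had genotypes that did not overlap, in the same direction, in all 6 treatments, 22 higher and 14 lower in AMPKα1-/-. Chromosome 4 held 13 of these, and 12 of the 138 genes beyond 140 Mb were among them (8.70%, against 0.319% of all genes). The region was drawn around genes called in vehicle, and vehicle is one of the 6 treatments. Without called genes, 8 of the remaining 132 were among them (6.06%, against 0.189% elsewhere). Eno1 was one of the 12, with 0.74 in vehicle and a higher level in each AMPKα1-/- library of each treatment. Others were Kcnab2, a potassium channel β subunit gene, with 120, 148 and 142 FPKM in AMPKα1-/- and 91.1, 99.3 and 89.0 FPKM in WT libraries (0.54 ± 0.10, adjusted p = 0.136), and Vamp3, a gene of vesicle fusion, with 125, 122 and 118 FPKM against 94.5, 88.7 and 99.8 FPKM (0.36 ± 0.08, adjusted p = 0.190).

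Whether the vehicle difference itself departed from that in the other treatments was tested by the contrast of vehicle with the mean of the other 5. No gene of 11354 passed it with limma (0.00%), and 343 had an unadjusted p below 0.05 (3.02%). Deviations of same-numbered vehicle and treated libraries from their group means correlated at -0.20 to 0.47 (median 0.27) within AMPKα1-/- and at -0.26 to 0.50 (median 0.04) within WT, so that some of the libraries may be paired. With the replicate number within each genotype as a block, an alternative chosen after seeing the data, limma called 0 genes and 456 had an unadjusted p below 0.05. The smallest p-values were those of BC018473 (-0.91 ± 0.18, adjusted p = 0.219), Cygb, which encodes cytoglobin (-0.76 ± 0.16, adjusted p = 0.431), and Ly6c2, a monocyte surface antigen gene (-1.48 ± 0.35, adjusted p = 0.854). In vehicle all 3 stayed at or below 0.744 FPKM in each library, and their vehicle differences lay between -0.14 and 0.00. With libraries centred on a common median, BC018473 passed (adjusted p = 0.0316). None of the 19 called genes passed this contrast; they were chosen for a large vehicle difference, which is one side of it, so nothing is read from their unadjusted p-values.

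The lists for metabolism and AMPK signalling held 2 called genes, Txnip and Eno1b. With 0.169% of all genes called, a list of this size without a call is near that share, so nothing is read from the absence of calls, and medians are given instead. Of the AMPK substrates, 18 of 19 were tested, with a median difference of 0.02 against 0.0086 for all genes; Txnip was the only call. Pfkfb3, the enzyme that drives glycolysis through fructose 2,6-bisphosphate, had 17.9, 14.6 and 19.2 FPKM in AMPKα1-/- and 27.7, 21.4 and 25.9 FPKM in WT libraries without passing (-0.51 ± 0.13, adjusted p = 0.285). Srebf1, the lipogenic transcription factor gene, had 45.5, 42.3 and 47.8 FPKM against 40.5, 38.4 and 37.4 FPKM (0.22 ± 0.08, adjusted p = 0.531). None of the 10 mTORC1 pathway genes, 24 autophagy genes, 18 TCA cycle genes, 29 nuclear respiratory chain genes, 11 tested genes of mitochondrial biogenesis or 24 tested genes of sterol and fatty acid synthesis was called, and each of these lists had a median between -0.08 and 0.04. Of 18 fatty acid oxidation genes none was called either, and the median was 0.04, with 12 higher and 6 lower. Cpt1a, which lets fatty acids into mitochondria, had 51.0, 53.4 and 59.6 FPKM against 39.7, 42.2 and 39.9 FPKM, without overlap (0.42 ± 0.09, adjusted p = 0.176), and Echs1, an enzyme of β-oxidation, had 23.9, 18.9 and 21.2 FPKM against 28.2, 25.4 and 27.8 FPKM (-0.34 ± 0.11, adjusted p = 0.393). Of the 23 glycolysis genes Eno1b was the only call, and the median was -0.02, with members on both sides: 3 were higher and 4 lower at an unadjusted p below 0.05 (5.00% and 3.41% of all genes), Eno1 and Eno1b among them. Of 13 mitochondrially encoded genes 12 were tested, with none called and a median of 0.15. Of 11 AMPK-related kinases tested and 16 NRF2 and antioxidant genes none was called, with medians of 0.049 and 0.055. Of the NRF2 and antioxidant genes 10 were higher and 6 lower. Nqo1, a quinone reductase, had 10.02, 12.90 and 12.19 FPKM against 9.73, 7.09 and 8.80 FPKM (0.42 ± 0.14, adjusted p = 0.469).

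**Figure D5:**
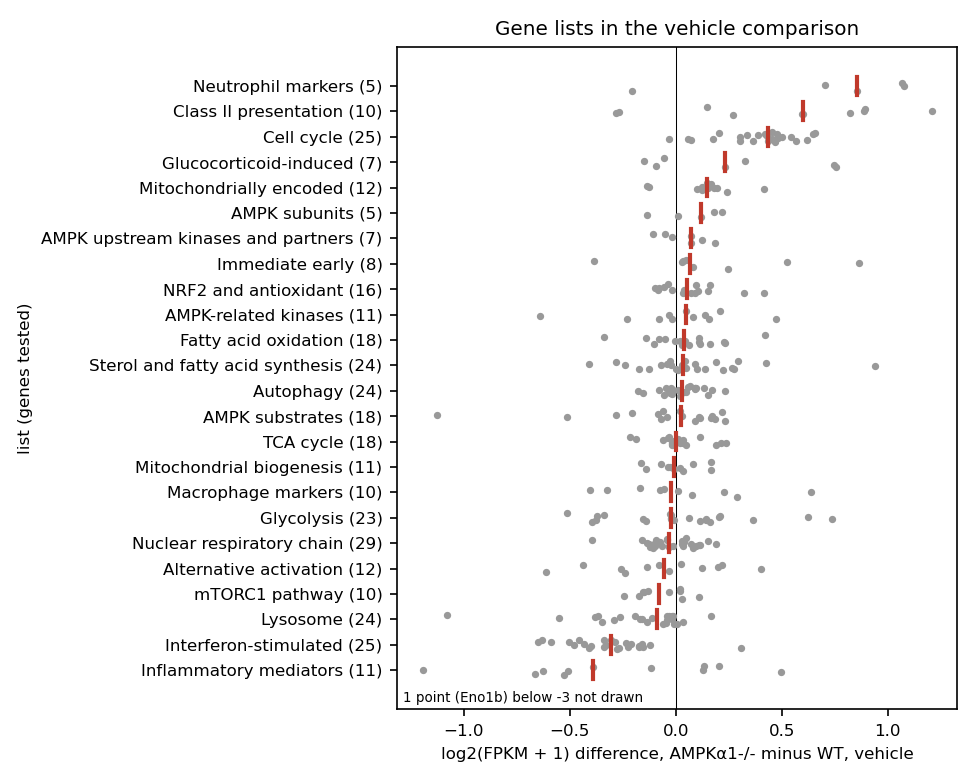
Difference between genotypes in vehicle, on the log2(FPKM + 1) scale (horizontal axis), for the tested members of each list with at least 5 tested genes (vertical axis, number tested in brackets). Grey points are genes and red bars list medians; the medians of the neutrophil, class II and cell cycle lists lie highest (0.85, 0.60 and 0.44) and those of the interferon-stimulated genes and inflammatory mediators lowest (-0.31 and -0.39), while Eno1b, below -3, is not drawn.

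The lists with the largest medians varied between libraries of the same genotype. Of the 25 interferon-stimulated genes, none was called and none had an unadjusted p below 0.05; 24 had a negative (5401 of 11275 over all genes) and 1 a positive difference, with a median of -0.31. Their mean log2(FPKM + 1) was 4.0, 3.78 and 2.82 in the AMPKα1-/- libraries and 3.63, 3.79 and 4.11 in the WT libraries, so that AMPKα1-/- replicate 3 stood low and the other AMPKα1-/- libraries lay within the WT range. Ifit3, an antiviral gene, shows it: 12.2, 9.67 and 2.28 FPKM against 7.70, 12.2 and 14.5 FPKM. Of the 10 class II presentation genes, none was called, 2 were higher at an unadjusted p below 0.05 (5.00% of all genes were), and the median was 0.60. Their mean was 5.57, 5.76 and 6.88 against 5.96, 4.99 and 5.80, with AMPKα1-/- replicate 3 the highest and WT replicate 2 the lowest. Cd74, the invariant chain of class II, had 913, 945 and 1502 FPKM against 581, 363 and 499 FPKM, without overlap (1.21 ± 0.24, adjusted p = 0.141), and Ciita, the master regulator of class II genes, had 10.04, 10.11 and 14.21 FPKM against 6.47, 4.01 and 8.05 FPKM (0.82 ± 0.23, adjusted p = 0.319). H2-Ab1, a class II chain, overlapped widely, with 127, 143 and 1891 FPKM against 451, 57.2 and 381 FPKM.

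Cell cycle genes had a positive difference in 24 of 25 cases (5874 of 11275 over all genes), with a median of 0.44. None was called, and 3 had an unadjusted p below 0.05, all higher (5.00% of all genes were). Their mean was 3.98, 4.42 and 3.83 in AMPKα1-/- and 3.32, 3.97 and 3.77 in WT libraries, and WT replicate 1 was the lowest of all. Mki67, a marker of dividing cells, had 6.97, 10.9 and 6.33 FPKM against 3.86, 6.47 and 6.46 FPKM, and Plk1, a mitotic kinase gene, had 11.2, 10.1 and 10.8 FPKM against 5.03, 9.17 and 6.22 FPKM (0.62 ± 0.19, adjusted p = 0.373). Only Plk1 of these 2 had groups that did not overlap. Of the 24 lysosome genes 21 had a negative difference (5401 of 11275 over all genes). None was called, and 4 were lower at an unadjusted p below 0.05 (3.41% of all genes were). Ctss, the gene of cathepsin S, had 1564, 1576 and 1794 FPKM against 2471.3, 2149.3 and 2626.2 FPKM (-0.55 ± 0.14, adjusted p = 0.258), and its groups did not overlap.

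Of the 19 inflammatory mediators 11 were tested and none was called (median -0.39). Their mean log2(FPKM + 1) was 3.22, 2.98 and 2.44 in AMPKα1-/- and 3.27, 2.99 and 3.22 in WT libraries. AMPKα1-/- replicate 3 was the lowest of all. Ccl5, a chemokine gene, had 10.4, 15.1 and 5.22 FPKM in AMPKα1-/- and 26.9, 21.4 and 20.9 FPKM in WT libraries (-1.19 ± 0.31, adjusted p = 0.285), Ccl2 had 3.21, 3.49 and 1.59 FPKM against 5.24, 3.55 and 5.35 FPKM (-0.63 ± 0.24, adjusted p = 0.527), and Cxcl2 had 4.40, 4.02 and 3.04 FPKM against 1.96, 2.72 and 2.54 FPKM (0.50 ± 0.16, adjusted p = 0.421). These chemokines differed in direction. Of 12 tested genes of alternative activation none was called, 5 were higher and 7 lower, and the median was -0.055. The lowest difference was that of Mrc1, the mannose receptor, the only member without overlap. It had 114, 130 and 128 FPKM against 175, 184 and 215 FPKM (-0.61 ± 0.11, adjusted p = 0.107). Of 8 tested immediate early genes Fos was the only call, and Jun, its AP-1 partner, had 40.2, 38.6 and 40.2 FPKM against 34.2, 29.6 and 36.5 FPKM (0.25 ± 0.10, adjusted p = 0.541). Of 7 glucocorticoid-induced genes none was called, 4 had a positive and 3 a negative difference, and the median was 0.23. Dusp1, a phosphatase that switches off MAP kinases, had 28.03, 32.84 and 32.73 FPKM against 22.3, 15.8 and 16.6 FPKM (0.75 ± 0.14, adjusted p = 0.132), and Sgk1, a kinase gene, had 74.8, 73.4 and 51.8 FPKM against 42.7, 31.4 and 43.4 FPKM (0.75 ± 0.18, adjusted p = 0.232). In neither gene did the groups overlap (13.9% of all genes did not), while the other 5 overlapped.

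The cells were macrophages by their markers. All 10 macrophage markers were tested and none was called. Lyz2, a lysozyme gene and the most abundant, had 29598, 24405 and 18800 FPKM in AMPKα1-/- and 17922, 23014 and 18030 FPKM in WT libraries, and Adgre1, which encodes F4/80, had 706, 959 and 626 FPKM against 989, 1180 and 849 FPKM. Both overlapped between genotypes. Markers of B cells, mast cells and erythroid cells were each below 1 FPKM on average, and Pax5 and Fcer1a were listed at 0 in every vehicle library. Of 12 neutrophil markers 5 were tested, with a summed level of 98.6, 72.1 and 74.1 FPKM against 109, 55.2 and 75.9 FPKM. Csf3r, the most abundant, made up most of it, and Ly6g and Retnlg were at or near 0. Csf3r had a negative difference (-0.21 ± 0.16, adjusted p = 0.8002), and the other 4 tested had positive ones, which gave a median of 0.85. S100a9, a calcium-binding protein gene of granulocytes, had 14.6, 6.88 and 1.66 FPKM against 11.1, 0.231 and 1.36 FPKM (1.07 ± 0.89, adjusted p = 0.821). It was low in WT replicates 2 and 3 and in AMPKα1-/- replicate 3, and the groups overlapped. Of 8 dendritic cell markers 2 were tested, and Itgax, the most abundant, had 78.8, 107 and 267 FPKM against 230, 103 and 338 FPKM, while Cd209a was listed at 0 throughout. None of these lists had a called gene.

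Markers of fibroblasts and of osteoclasts were high in 2 of the WT libraries. The 8 fibroblast markers summed to 1.77, 3.24 and 1.71 FPKM in AMPKα1-/- and to 18.8, 1.54 and 10.2 FPKM in WT libraries, high in WT replicates 1 and 3, with Col1a2 the most abundant and Lum at 0. The 6 osteoclast markers summed to 26.7, 55.5 and 48.8 FPKM against 101, 48.3 and 86.0 FPKM, again highest in WT replicates 1 and 3, with Mmp9 the most abundant and Calcr at 0. Ctsk, the gene of cathepsin K, had 4.43, 3.50 and 4.08 FPKM against 14.2, 6.30 and 15.7 FPKM, without overlap (-1.30 ± 0.29, adjusted p = 0.201). Ctsk was also among the 36 genes (0.319%) whose genotypes did not overlap, in the same direction, in all 6 treatments. The part of these markers in the called genes was not tested, and in bulk RNA a lower number of cells of one type and less RNA per cell cannot be told apart. Of the 7 T and NK cell markers Cd4 alone was tested, with 11.2, 11.5 and 6.58 FPKM against 17.9, 15.9 and 15.6 FPKM (-0.73 ± 0.19, adjusted p = 0.295).

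Sex-linked genes and a short list of strain-variable genes were read in each library. Xist, the RNA of the inactive X chromosome, was listed at 0 in all 6 vehicle libraries, while the Y-linked gene Ddx3y had 21.7, 27.7 and 25.5 FPKM in AMPKα1-/- and 29.9, 22.0 and 30.5 FPKM in WT libraries. Eif2s3y, Kdm5d and Uty, also on the Y chromosome, were expressed in all 6 and had overlapping groups. By these genes all 6 vehicle libraries read as male, although the published methods give mixed-sex mice. Nnt, a mitochondrial transhydrogenase gene that is partly deleted in some C57BL/6 substrains, had 11.3, 12.2 and 10.8 FPKM against 10.8, 12.6 and 11.6 FPKM. Casp4, Wdfy1, Ide and Fgfbp3, which vary between inbred strains or substrains, overlapped as well, none of the 5 tested passed, and Entpd4 was at or near 0 throughout. So few genes say nothing about the strain background elsewhere in the genome.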

How the data were processed

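RNA from the BMDMs was sequenced by a commercial provider. The authors deposited one table of FPKM values per sample, and the submitters' processing notes name Bowtie2 2.2.3, TopHat2 2.0.12, HTSeq 0.6.1 and DESeq2 with GRCm38; annotation and strand use were not given in any source read. Raw counts were not used here, so that count tests could not be run. Library totals were estimated from FPKM steps and GENCODE M21 exon lengths, and 58.0 to 61.3% of genes below 10 fragments then came out whole (within 0.001), too few to recover reads. For 46574 of 47069 genes GENCODE M21 gave a symbol and position. Genes with a mean of at least 1 FPKM over the 6 vehicle libraries were tested with limma 3.58.1 (R 4.3.3; trended moderation, two-sided) on log2(FPKM + 1), which understates changes of low genes, at an adjusted p of 0.05; the script was tested on simulated data. Other treatments were compared in one fit of 35 libraries in 12 groups. Copies were found with BLAST+ 2.17.0 (at least 100 bases and 90% identity). Named genes were the AMPK subunits, the 10 largest rises and falls among calls without overlap, up to 3 genes per list at an unadjusted p below 0.05, up to 5 calls in each of the 3 windows richest in calls, calls within 10 Mb of Prkaa1, the 3 lowest p-values for vehicle against other treatments, and the sex and strain lists. Some genes that this rule takes in, 1 of them called, are not reported here. Members and the 33 lists were chosen with earlier results of these data known. Alternatives were another pseudocount, other filters, centring, quantile normalization, all libraries, no moderation, a replicate block and leaving out each library.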

Additional observations from a re-analysis of the deposited data

How the results depend on the processing

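The 19 calls in vehicle became 17, 16, 14, 16 and 18 with a pseudocount of 0.1, no filter, a minimum of 5 FPKM, centring and quantile normalization (17, 8, 14, 16 and 18 of them among the 19), 56 with all 35 libraries in 12 groups (16 of the 19 among them) and 2 without moderation. Leaving out a library in turn gave 7 to 34. Calls on chromosome 4, 6 at first, were 2 without a filter, 12 with all libraries, 0 without moderation and 3 to 7 with a library left out; within 10 Mb of Prkaa1 there were 0 in each alternative run. Each of the 19 genes kept its direction in every alternative that gave it a value, and 2 (Eno1b and Gm4735) kept the call in all of them. Prkaa1 was never called; its difference ran from -0.0039 to 0.19 with a library left out. Small differences turned sign for Prkab1 (-0.0011 with centring, -0.0053 with quantile normalization, -0.076 to 0.13 with a library left out) and Ide (-0.0092, -0.014 and -0.067 to 0.11), and with a library left out for Nnt (-0.070 to 0.031) and Uty (-0.18 to 0.046). With DAMPs, 83 calls became 41 with a pseudocount of 0.1 and 54 with a minimum of 5 FPKM, and vehicle against other treatments went from 0 to 1 with centring; the cause was not tested. Deviations of same-numbered libraries of the 2 genotypes correlated at -0.11, 0.01 and 0.14. With 3 libraries per group these values do not settle whether replicate numbers pair the genotypes. With a replicate block there were 9 calls, 3 of them on chromosome 4. Of the 19 genes, Eno1b, Gm4735, Fblim1, Clstn1, Dnajc28, Klk1b22, Zfp991 and Txnip kept the call with this block, and the others lost it. Leaving a library out leaves 2 against 3, and at about 0.0426 to 0.0595 FPKM per fragment for a gene of 1 kb the low levels of Eno1b, Gm4735 and Klk1b22 rest on few or no fragments.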
